A study of Drosophila melanogaster with 53 samples.

Results

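The 8 genes described here encode the superoxide dismutases Sod1, Sod2 and Sod3, the catalase Cat and the peroxiredoxins Prx2, Prx3, Prx4 and Prx5 of Drosophila melanogaster. They were taken by name from the 15222 genes of an RNA sequencing table of whole adult males, and all 8 were found and passed the filter on low values (10 or more normalized counts on average), as did 12475 genes in all. Their FlyBase identifiers are FBgn0003462 for Sod1, FBgn0010213 for Sod2, FBgn0033631 for Sod3, FBgn0000261 for Cat, FBgn0040309 for Prx2, FBgn0038519 for Prx3, FBgn0040308 for Prx4 and FBgn0038570 for Prx5. Males were exposed to 10, 1000, 5000, 10000 or 20000 R (roentgen, a unit of exposure to X-rays or gamma rays) or left unirradiated. Exposure took place 2 days after eclosion, and flies were collected 2, 10 or 20 days afterwards. The 53 libraries of polyadenylated RNA form 18 groups of dose and day, each of 3 libraries apart from the unirradiated controls at day 20, which have 2. All groups share sex, age at exposure and the use of whole bodies. No strain, radiation source or number of flies per library is given in the labels, nor whether libraries of a group came from separate cultures, so p-values measure only how far these samples differ from each other, possibly for technical reasons. Within a group, the letters a, b and c follow the order of the table's columns.

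Superoxide dismutases turn superoxide into hydrogen peroxide and oxygen, and catalase and peroxiredoxins remove the hydrogen peroxide. Catalase does so in peroxisomes with a heme group, whereas peroxiredoxins use a reactive cysteine that thioredoxin, and behind it NADPH, reduces again. Ionizing radiation splits water into radicals from which superoxide and hydrogen peroxide form, and in flies lack of Sod1, Sod2 or Cat shortens adult life.

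Libraries held 15.354 to 46.152 M reads (M for mega), recovered from the deposited values, with a median of 23.308 M. An earlier analysis of these data set 9 libraries apart from the others of their group: b at day 20 in controls, b and c at day 2, a and c at day 10 and c at day 20 after 10 R, c at day 20 after 5000 R, c at day 10 after 10000 R and a at day 10 after 20000 R. Marker genes of females summed to 293125 normalized counts in library a at day 10 after 10 R and to 211051 in library c at day 10 after 10000 R, against 312 to 3284 in every other library. Results that rest on these 9 libraries are given with and without them. Leaving out libraries picked from these same data narrows the spread within groups, which by itself lowers p-values. A call made only without them is therefore not taken as support. It also leaves only library a in controls of day 20 and at day 2 after 10 R. Because the RNA came from whole flies, fewer cells of a type and less RNA per cell cannot be told apart.

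Per kilobase of exon, Sod1, the cytosolic copper and zinc enzyme, and Cat were the most abundant of the 8 transcripts in control males. At day 2, Sod1 stood at 15153 ± 1633 normalized counts per kb and Cat at 10891 ± 342 (SD, n = 3). Sod2, the manganese enzyme of mitochondria, followed with 5233 ± 146, Prx5 with 4295 ± 447 and Prx2, the main cytosolic peroxiredoxin, with 3543 ± 283. Mitochondrial Prx3 at 1126 ± 93.5, Prx4, a peroxiredoxin of the endoplasmic reticulum, at 1004 ± 41.6 and the extracellular copper and zinc enzyme Sod3 at 598 ± 41.8 were the lowest. Neighbouring genes whose values overlapped within their SD were Prx3 and Prx4. At day 20 (n = 2) the order was Sod1 at 21916 ± 468, Cat at 18080 ± 2445, Prx2 at 5570 ± 940.2, Prx5 at 4673 ± 921, Sod2 at 3464 ± 526, Prx3 at 1431 ± 207, Prx4 at 757 ± 74.5 and Sod3 at 435 ± 41.6. Between days 2 and 20, Prx2 had moved above Prx5 and Sod2 in this order, and at day 20 its SD range overlapped that of Prx5, as that of Prx5 did that of Sod2. Prx5 shares all its exon bases with CG7215, which had identical values in every library. The place of Prx5 in this order may therefore belong to CG7215. All values below are normalized counts without the division by length, so they compare a gene only with itself.

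Prx4 was the 1 member whose transcript fell strongly after irradiation, at the upper 2 doses and from day 10. A further call at day 2 after 10 R rests on libraries that stand apart and is given with that dose. In flies, the Prx4 protein, first named Jafrac2, is released from the endoplasmic reticulum during cell death and can bind the caspase inhibitor Diap1. At day 10, Prx4 stood at 377, 411 and 415 normalized counts in libraries a, b and c after 10000 R and at 418, 390 and 395 after 20000 R, against 1239, 1117 and 1182 in controls. The means of both doses were 34% of the control mean, and every irradiated library lay far below the lowest control. At day 20, it stood at 318, 372 and 364 after 10000 R and at 305, 362 and 371 after 20000 R, against 1028 and 894 in controls. Neither dose overlapped the controls at either of these days, whereas at day 2 the groups overlapped: 1319, 1195 and 1365 after 10000 R and 1186, 1202 and 1231 after 20000 R, against 1286, 1322 and 1218 in controls.

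**Figure D1:**
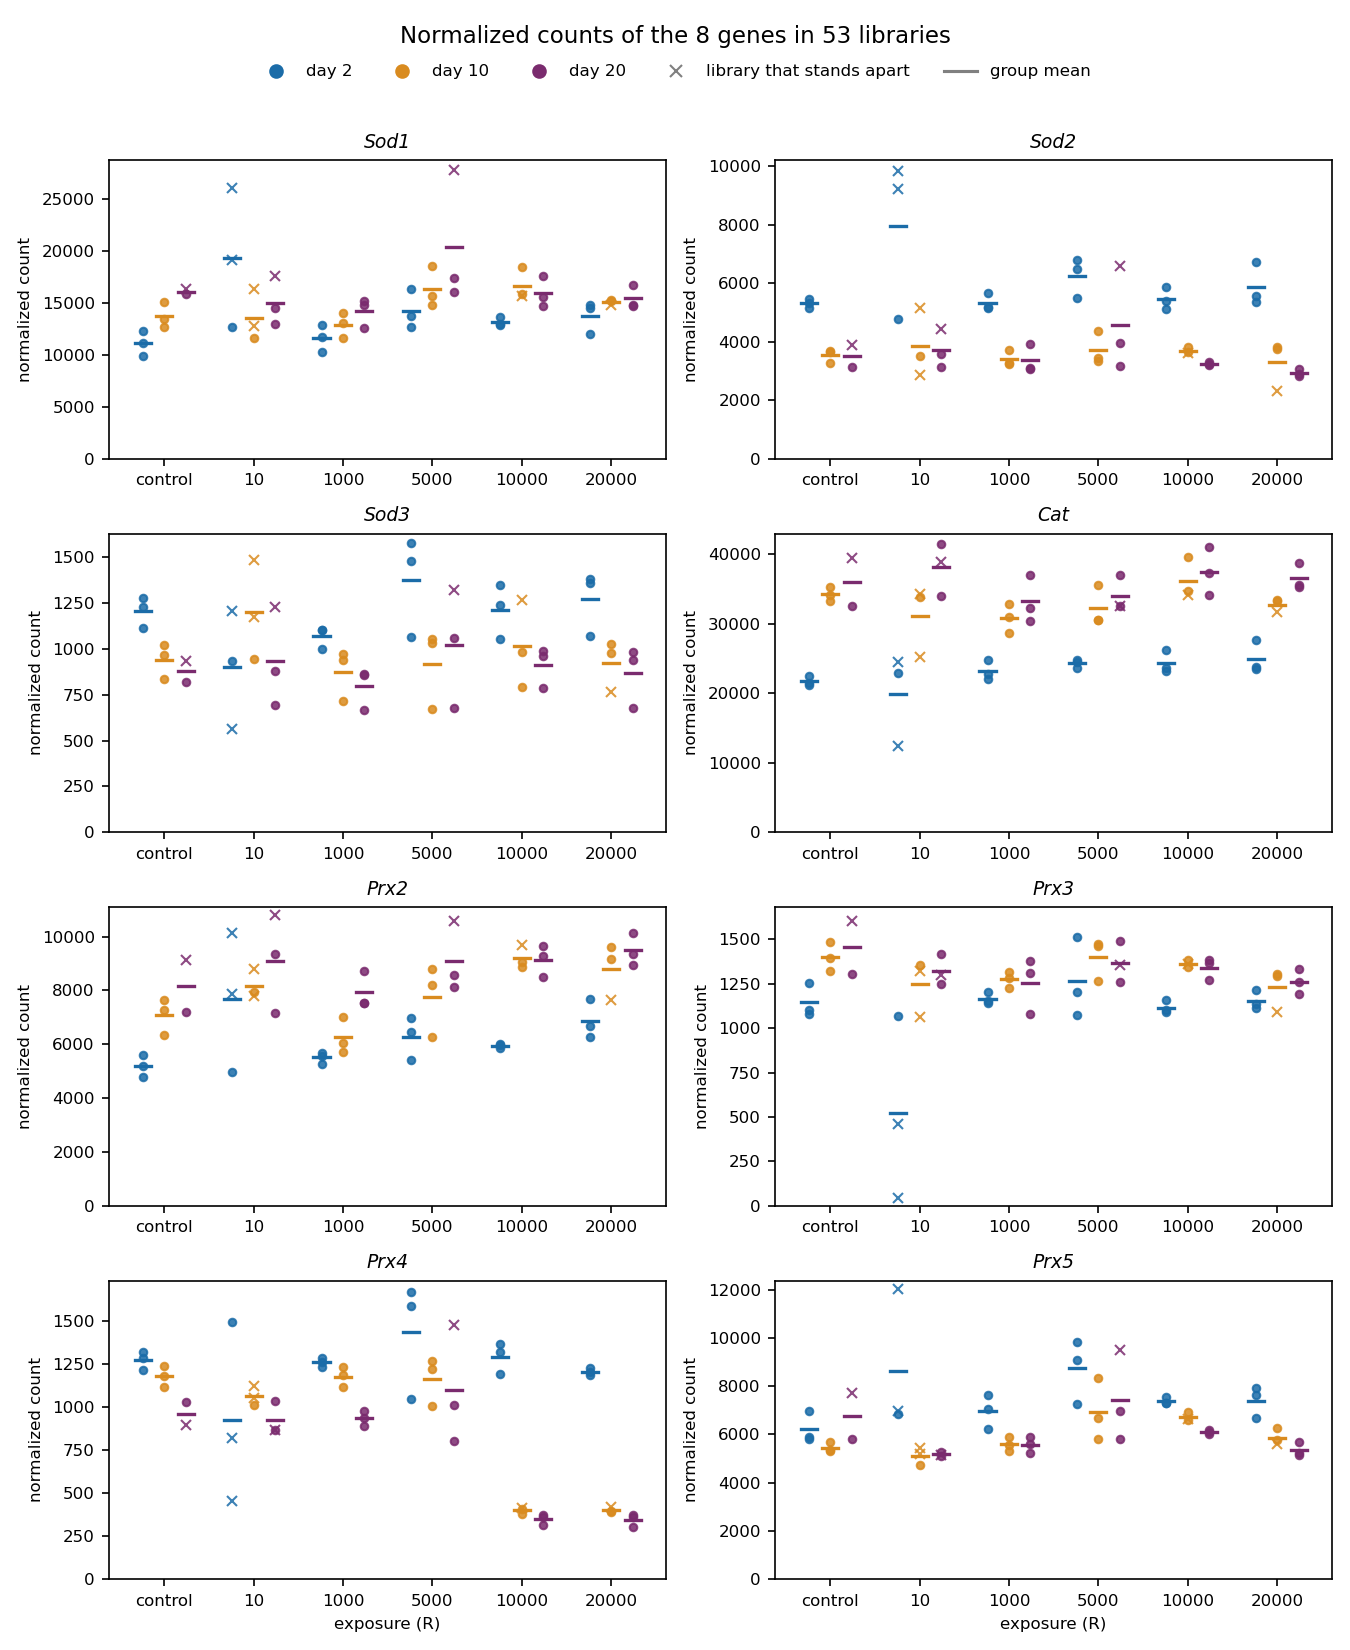
Normalized counts of the 8 genes in each of the 53 libraries, by dose from control to 20000 R within each day, 1 panel per gene; crosses mark the 9 libraries that stand apart. Prx4 sits between 305 and 418 in all libraries of days 10 and 20 after 10000 R and 20000 R, against 894 to 1239 in controls of those days.

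On the log2 scale, Prx4 changed by -1.55 ± 0.22 at day 10 after 10000 R (SE; limma's adjusted p = 1.53e-07) and by -1.55 ± 0.22 after 20000 R (adjusted p = 1.61e-07), where 22.1% and 21.4% of all genes tested passed the threshold of 0.05, and 19.9% and 18.7% passed it as lower. At day 20 the changes were -1.45 ± 0.24 (adjusted p = 6.21e-06) and -1.47 ± 0.24 (adjusted p = 4.41e-06), with 21.1% and 22.5% of genes called. At day 2 they were 0.02 ± 0.22 and -0.08 ± 0.22 and did not pass, and 0.0962% and 0.16% of genes did. The response of Prx4 differed between the days by limma's F test after 10000 R (adjusted p = 0.000105; 14.1% of genes passed) and after 20000 R (adjusted p = 0.000272; 13.8% passed). It was the 1 member of 8 to pass this test at either dose, and none passed it after 10 R, 1000 R or 5000 R, where 4.04%, 0% and 0.0561% of genes did. Both doses were compared with the same controls. Each of these calls stayed past the threshold in every alternative setting run and with any 1 of the 53 libraries left out.

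At 1000 R and 5000 R, Prx4 did not pass. After 5000 R it had 1046, 1668 and 1591 normalized counts at day 2, 1222, 1270 and 1005 at day 10 and 801, 1012 and 1479 at day 20, so that its means were 112%, 98.9% and 114% of the control means. As the mean over days, the change was 0.09 ± 0.13 after 5000 R, -0.996 ± 0.13 after 10000 R (adjusted p = 3.38e-08) and -1.04 ± 0.13 after 20000 R (adjusted p = 1.36e-08). The step between 5000 R and 10000 R was -1.08 ± 0.12 (adjusted p = 1.82e-09), and 38.2% of all genes passed at that step. The next step, 20000 R against 10000 R, was -0.04 ± 0.12 and did not pass, with 1.51% of genes called.

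Transcripts of the testis moved with Prx4. All 24 markers of the testis and of developing sperm that were tested fell at day 10 after 10000 R (median log2 change -5.83) and 22 of 24 after 20000 R (median -6.86). At day 20, 21 and 22 of them fell (medians -5.66 and -7.21), against 16.7% and 16.9% of all genes called lower. Their summed level at day 10 was 4239 to 6523 normalized counts after 10000 R and 2373 to 2871 after 20000 R, against 283332 to 332174 in controls. At day 20 it was 4290 to 5575 after 10000 R and 1520 to 2070 after 20000 R, against 275472 to 276461 in controls. At day 2 it was 365241 to 392771 after 10000 R and 317209 to 394461 after 20000 R, against 352854 to 393744 in controls, and no marker fell there or at any day after 1000 R or 5000 R. No marker was at 0 in a whole group. Prx4 kept 34% of its control mean at day 10 at both doses and 36.5% and 36% at day 20. The part of the testis in the change of Prx4 was not tested. Prx4 also shares 62 exon bases, or 4.9% of its length, with scramb2 on the opposite strand, so reads there may belong to either gene.

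**Figure D2:**
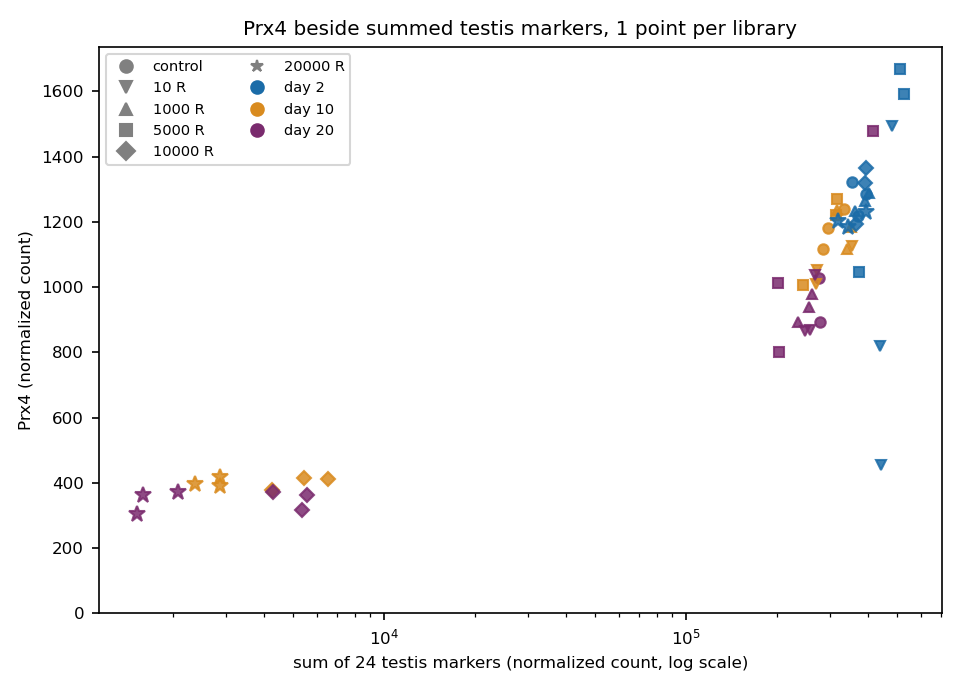
Prx4 (normalized counts, vertical axis) against the summed testis markers (normalized counts, log axis) in each library, coloured by day with 1 symbol per dose. Libraries of days 10 and 20 after 10000 R and 20000 R hold at most 6523 marker counts and 305 to 418 Prx4 counts.

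Prx2, known in flies as Jafrac1, rose modestly at the highest dose. At day 10 it had 7623, 9606 and 9179 normalized counts after 20000 R and 9046, 8864 and 9701 after 10000 R, against 6353, 7628 and 7284 in controls. The 3 libraries of 10000 R all lay above the 3 controls, while library a of 20000 R lay just below the highest control. At day 2 it had 6268, 6679 and 7663 after 20000 R and 6017, 5979 and 5848 after 10000 R, against 4775, 5603 and 5181 in controls, with no overlap at either dose. At day 20, 20000 R gave 9362, 8947 and 10145 and 10000 R gave 9663, 9287 and 8483, against 7181 and 9128 in controls, and both doses overlapped the controls. As the mean over days, Prx2 rose by 0.31 ± 0.10 (log2, SE) after 20000 R (limma's adjusted p = 0.0123), where 28.4% of all genes were called. After 10000 R the change was 0.25 ± 0.10 and missed the threshold (adjusted p = 0.0506), with 27.7% of genes called. The rise after 20000 R was lost without library a of control day 20 (0.26, adjusted p = 0.0696). Without the 9 libraries that stand apart, the changes were 0.40 after 20000 R and 0.30 after 10000 R, with only library a left in controls of day 20. Within single days none of the 6 comparisons of Prx2 at these doses passed, the nearest being day 10 after 10000 R at 0.38 (adjusted p = 0.0972). Without the 9 libraries, the changes at day 10 were 0.41 after 20000 R and 0.34 after 10000 R.

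Sod1, Sod2, Sod3, Cat, Prx3 and Prx5 passed no comparison with controls at 10000 R or 20000 R, whether within a day or as the mean over days. Over days, 1 of the 8 members was called after 10000 R (Prx4, lower) and 2 after 20000 R (Prx4, lower, and Prx2, higher). The median log2 change of the 8 genes was 0.07 after 10000 R and 0.01 after 20000 R, against 0.06 and 0.08 over all genes tested. Prx5 lay above all controls at days 2 and 10 after 10000 R, with means at 119% and 123% of the control mean. Without the 9 libraries its changes after 10000 R were 0.21 over days and 0.31 at day 10. With quantile normalization it was called at day 10 after 10000 R (0.34, limma's adjusted p = 0.0289). That normalization moved the median of all genes at this dose and day to 0.43, from 0.03. It called 5957 genes, 3808 of them higher, against 2755 genes, 276 of them higher, without it. Prx5 at 0.34 lay below that median, so this call is not taken as support for a rise. Sod1 at day 10 had 14772, 15204 and 15313 normalized counts after 20000 R and 18435, 15889 and 15659 after 10000 R, against 15117, 12710 and 13444 in controls. The libraries of 10000 R lay above all controls, and those of 20000 R overlapped them. Sod3 stayed near its controls, with 763, 979 and 1026 at day 10 after 20000 R and 790, 986 and 1269 after 10000 R, against 834, 1022 and 969 in controls. Its log2 changes over days were -0.000951 ± 0.14 after 20000 R and 0.05 ± 0.14 after 10000 R. Cat averaged 32783 ± 974 at day 10 after 20000 R and 36147 ± 3024 after 10000 R, against 34255 ± 1014 in controls (SD, n = 3), and overlapped them at both doses. At day 2 all libraries of Cat lay above the controls after 5000 R, 10000 R and 20000 R, with means at 112%, 112% and 115.1% of the control mean. None of these comparisons passed, and all used the same controls. The share of all genes whose libraries lay apart in this way was not counted, here or for the other members.

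**Figure D3:**
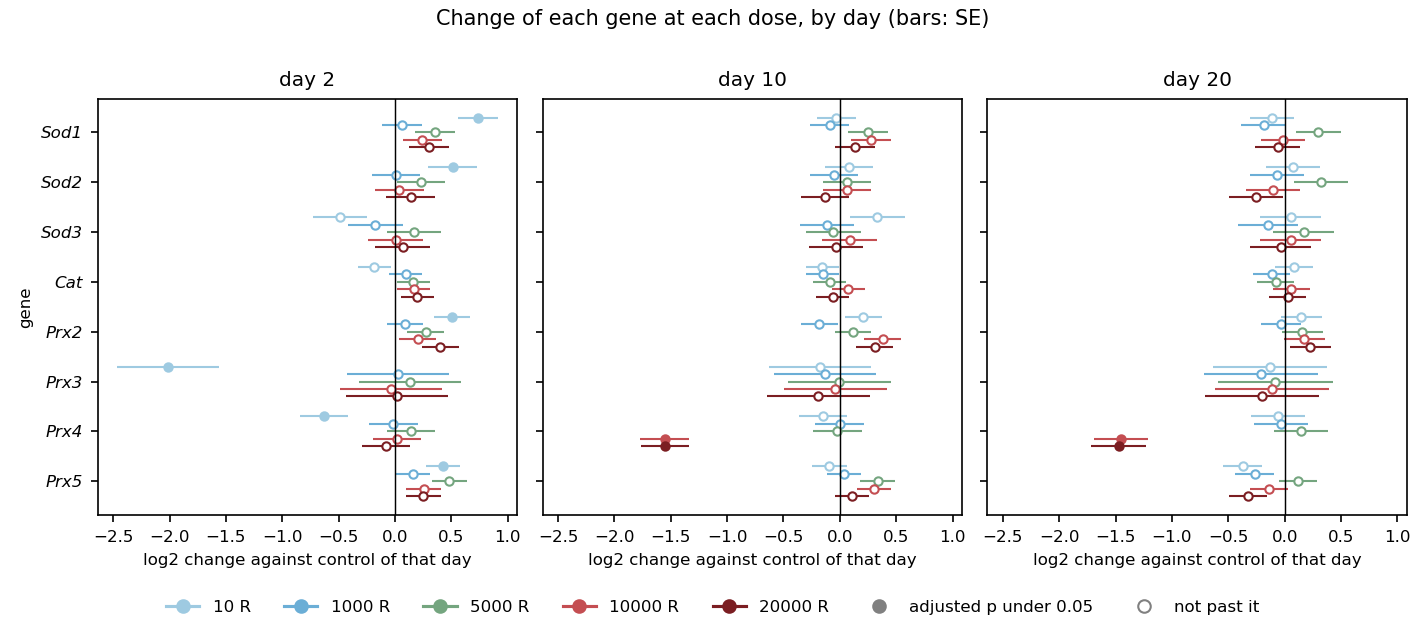
Log2 change against the controls of the same day for each gene and dose, with bars for 1 SE and filled symbols where limma's adjusted p is under 0.05. Prx4 lies between -1.55 and -1.45 at days 10 and 20 after 10000 R and 20000 R.

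At 1000 R no member passed any comparison with controls, and 0% of all genes did as the mean over days, at day 2 and at day 10. Day 20 had 0.016% of genes called. After 5000 R, Prx5, a peroxiredoxin of several compartments, rose by 0.31 ± 0.09 over days (adjusted p = 0.0419; 4.55% of genes called). It had 7273, 9854 and 9101 normalized counts after 5000 R, against 6970, 5888 and 5811 in controls, at day 2. At day 10 it had 5805, 8365 and 6667 after 5000 R, against 5673, 5308 and 5355 in controls, and at day 20 it had 5823, 6958 and 9488 after 5000 R, against 5828 and 7715 in controls. The libraries of 5000 R lay above the controls at days 2 and 10 and overlapped them at day 20. The call was lost with edgeR (0.34, adjusted p = 0.0742), without the filter on low values (adjusted p = 0.0505), and without any 1 of 13 libraries: library b or c of any day after 5000 R, or any control library other than a of day 2. Within single days no member passed after 5000 R, with 0.449% of genes called at day 2, 0.016% at day 10 and 0.473% at day 20. Prx5 and CG7215 had identical values in every library and share all 1449 exon bases on the same strand, so the level may belong to either gene.

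Between neighbouring doses, the step between 1000 R and 5000 R was called for Sod1 and Prx5. Against controls, Sod1 after 5000 R missed the threshold over days (0.30, limma's adjusted p = 0.0974). After 1000 R, Sod1 averaged 104%, 93.9% and 88.2% of its control mean at days 2, 10 and 20. Sod1 had 14776, 18608 and 15690 normalized counts at day 10 after 5000 R, against 14031, 13088 and 11629 after 1000 R, and the groups did not overlap. At day 2 it had 12651, 13753 and 16363 after 5000 R, against 12909, 10242 and 11738 after 1000 R. At day 20 it had 16042, 17406 and 27865 after 5000 R, against 15187, 14833 and 12589 after 1000 R. The groups overlapped at day 2, through library a of 5000 R, and lay apart at day 20, where library c of 5000 R is 1 of the 9 that stand apart. The step of Sod1 was 0.37 ± 0.10 over days (adjusted p = 0.0232; 6.37% of genes called). It was lost without any 1 of 6 libraries (after 1000 R b of day 2, c of day 10 or c of day 20, and after 5000 R c of day 2, b of day 10 or c of day 20), and was 0.29 (adjusted p = 0.00766) without the 9. The step of Prx5 was 0.33 ± 0.09 (adjusted p = 0.0191). It was lost without b or c of day 2, b of day 10 or c of day 20 after 5000 R, and was 0.27 (adjusted p = 0.00834) without the 9.

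The lowest dose, 10 R, gave 6 calls at day 2, where 47.5% of all genes passed, and libraries b and c of that group are among the 9 that stand apart. Prx3 had 1066, 45.2 and 459 normalized counts in libraries a, b and c after 10 R, against 1080, 1254 and 1101 in controls. Sod1 had 12722, 26066 and 19161, against 12324, 9925 and 11164 in controls. Library a lay within or near the controls for both genes, and b and c lay far from them. By limma Sod1 rose by 0.74 ± 0.18 (adjusted p = 0.00152), Sod2 by 0.51 (adjusted p = 0.0477), Prx2 by 0.51 (adjusted p = 0.0116) and Prx5 by 0.42 (adjusted p = 0.0218). Prx3 changed by -2.01 ± 0.45 (adjusted p = 0.000969) and Prx4 by -0.63 (adjusted p = 0.0165). Leaving out library b of the exposed group alone ended the calls of Sod1 (0.49, adjusted p = 0.0665), Sod2, Prx2, Prx4 and Prx5, and that of Sod2 was lost without any 1 of 34 of the 53. Without the 9 libraries none passed: the changes were 0.20 for Sod1, -0.15 for Sod2, -0.06 for Prx2, 0.15 for Prx5, -0.10 for Prx3 and 0.23 for Prx4. Prx2 was also called for 10 R as the mean over days, at 0.29 (adjusted p = 0.0462; 13.5% of genes called). It stood at 0.10 without the 9. The call was also lost with edgeR (0.37, adjusted p = 0.0584), without the filter (adjusted p = 0.0553), with quantile normalization (0.22, adjusted p = 0.0736) and without any 1 of 33 of the 53 libraries. At the step between 10 R and 1000 R, where 27.5% of genes passed, Sod1 at -0.27 (adjusted p = 0.0451) and Prx2 at -0.33 (adjusted p = 0.0192) were called. Without the 9 these were 0.02 and -0.08. At days 10 and 20 after 10 R no member passed, with 0% and 0.016% of genes called.

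In unirradiated controls, 3 calls were made against day 2, Cat at days 10 and 20 and Prx2 at day 20. Over all exposures together, irradiated flies included, 15 calls were made for the 8 genes at these days, the exception being Sod1 at day 10. In irradiated flies, age and time since exposure cannot be told apart. Cat was higher at both later days at every exposure. In controls it averaged 21705 ± 682 normalized counts at day 2, 34255 ± 1014 at day 10 (SD, n = 3) and 36033 ± 4873 at day 20 (n = 2). The log2 change was 0.66 ± 0.15 at day 10 (limma's adjusted p = 0.00446; 2.76% of genes called) and 0.73 ± 0.17 at day 20 (adjusted p = 0.00301; 8.18% called), both against day 2. Without library b of control day 20 the change of Cat at day 20 was 0.59 and missed the threshold (adjusted p = 0.185), and with quantile normalization it was 0.55 (adjusted p = 0.0778). Fat body markers summed to 10101 to 11992 normalized counts at day 2, 35750 to 47247 at day 10 and 48024 to 51476 at day 20 in controls. This sum rests mostly on Lsp2, which averaged 22912.5 over all libraries, against 6625.2 for the next marker, Lsd-1. Of the 4 tested, 1 rose in controls and 2 over all exposures at both days. Of all genes, 1.74% and 3.9% rose in controls, and 20.3% and 20.6% over all exposures. Of the 6 markers, 2 were too low to test, and 1 was at 0 in both controls of day 20. The part of the fat body in the change of Cat was not tested. In all 6 exposures the libraries of day 10, and those of day 20, lay above those of day 2. Over all exposures together, the change was 0.52 at day 10 (adjusted p = 2.04e-09; 45.6% of genes called) and 0.65 at day 20 (adjusted p = 1.03e-11; 50.9% called).

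Sod2 was lower at the later days, where Cat was higher. In controls it had 5458, 5161 and 5318 normalized counts at day 2, 3277, 3670 and 3661 at day 10 and 3139 and 3894 at day 20. No control library of the later days reached the level of day 2. In controls alone its changes of -0.59 and -0.60 missed the threshold (limma's adjusted p = 0.207 and 0.12). Without the 9 libraries they were -0.59 and -0.76, the second resting on library a alone at day 20. Over all exposures it fell by 0.74 ± 0.09 at day 10 (adjusted p = 3.39e-09) and by 0.76 at day 20 (adjusted p = 1.98e-09). Its mean was lower at the later day in 6 of 6 exposures, without overlap in 5 of them at day 10 and 5 at day 20. The exceptions were 10 R at day 10 and 5000 R at day 20, through libraries that stand apart. Muscle markers moved in the same direction. Over all exposures 8 of 9 fell at both days (medians -1.67 and -1.63), against 25.4% and 30.3% of all genes. In controls 6 of 9 fell (medians -1.75 and -1.70), against 1.02% and 4.28% of all genes. None was at 0 in all libraries. Their sum in controls was 310997 to 391458 normalized counts at day 2, 191911 to 259135 at day 10 and 117531 to 159088 at day 20. After 20000 R the sum was 280799 to 317908 at day 2, 242386 to 288266 at day 10 and 201390 to 308344 at day 20. Sod2 averaged 5875, 3298 and 2930 there. After 10000 R the muscle sum was 258516 to 370867, 166780 to 239792 and 185909 to 313354 at these days. In controls and after 10 R, 1000 R and 5000 R, all sums of later days lay below those of day 2. The part of muscle in the change of Sod2 was not tested.

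**Figure D4:**
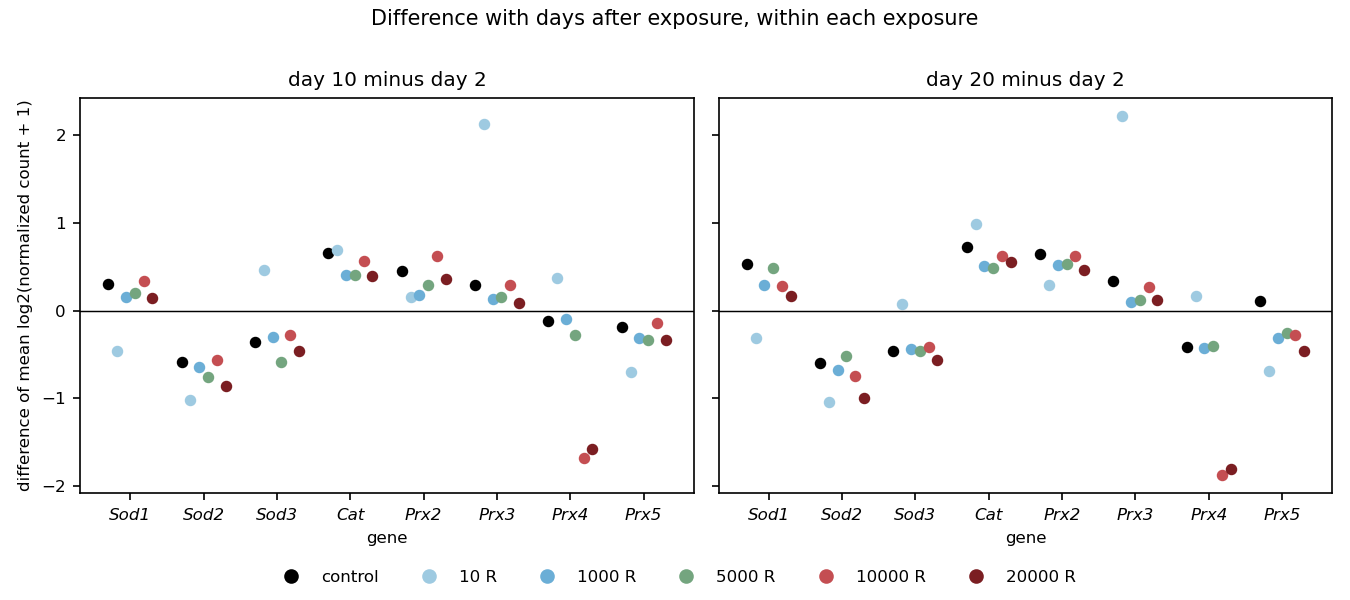
Log2 difference of day 10 and of day 20 against day 2 within each exposure, from control to 20000 R, for the 8 genes. Cat lies above 0 and Sod2 below 0 in all 6 exposures at both days, and Prx4 reaches -1.69 and -1.88 after 10000 R.

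Of the other members, Prx2 was higher at the later days. In controls it averaged 5186 ± 414 normalized counts at day 2, 7088 ± 660 at day 10 (SD, n = 3) and 8154 ± 1376 at day 20 (n = 2). Over all exposures it rose by 0.34 at day 10 (adjusted p = 4.36e-05) and by 0.51 at day 20 (adjusted p = 3.09e-08). In controls alone it was called at day 20 (0.65 ± 0.18, adjusted p = 0.0184), a call that was lost without a or c of control day 2 and without b of control day 20 (0.47, adjusted p = 0.577). Sod1 was called at day 20 over all exposures (0.24 ± 0.07, adjusted p = 0.00589). Prx3 was called at both days (0.51 and 0.53, adjusted p = 0.0222 and 0.0179), and without the 9 libraries, which include b and c of 10 R day 2, its changes were 0.23 (adjusted p = 0.000184) and 0.19 (adjusted p = 0.00139). Sod3 fell by 0.37 at day 20 (adjusted p = 0.00185). Its fall of 0.26 at day 10 (adjusted p = 0.0326) was lost with edgeR (-0.21, adjusted p = 0.0944), with quantile normalization (-0.17, adjusted p = 0.156) and without any 1 of 9 single libraries, with -0.21 at the smallest (adjusted p = 0.0660, without c of 10 R day 2). Those 9 were a of control day 10, c of 10 R day 2, b of 10 R day 10, a of 1000 R day 10, b of 5000 R day 2, a of 5000 R day 10, b of 10000 R day 2, a of 10000 R day 10 and a of 20000 R day 10. Prx5 fell by 0.34 at day 10 (adjusted p = 2.32e-05) and by 0.31 at day 20 (adjusted p = 6.45e-05). Prx4 fell by 0.57 and 0.79 over all exposures, an average that includes the 2 high doses. In controls alone it had changes of -0.11 and -0.41, neither of which passed.

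Spread within groups differed between the members. The median coefficient of variation over the 18 groups was lowest for Prx4 at 6.14% and highest for Sod3 at 15.5%. Cat had a median of 7.95%, Prx5 6.34%, Prx3 7.43%, Prx2 9.87%, Sod1 10.3% and Sod2 11.8%. For 7 of the 8 genes the group that varied most was 10 R at day 2, and for Sod2 it was 5000 R at day 20, at 39%. The 2 libraries with high female markers held the highest Sod3 counts of their groups, 1487 in a of 10 R day 10 and 1269 in c of 10000 R day 10, and the first also held 25155 counts of Cat, the lowest of its day.

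Across the 18 group means, Sod2 and Cat ran opposite to each other (Pearson r = -0.91, and -0.90 without the 9 libraries), while Cat and Prx2 ran together (0.78, and 0.90 without). Prx4 and Prx2 had r = -0.72 (-0.82 without), and Sod2 and Sod3 had 0.60 (0.91 without). These are descriptions over 18 groups that share day, dose and size factors. The genes most like Prx4, of 11005 genes averaging 50 or more normalized counts, were CG12692, h-cup and CG12637, each with r = 0.99. Those most like Sod2 were ATPsynE, a subunit of the mitochondrial ATP synthase, CG7430 and Pdhb, a subunit of pyruvate dehydrogenase, each with 0.99. Cat was nearest to Irp-1B (0.99), CG9512 and fbp (0.98 each). Sod1 was nearest to FBgn0033162, for which no symbol was matched (0.96), and to the ribosomal protein genes RpL24 and RpL17 (0.95 each). Prx2 was nearest to CG6769, GstT4 and FBgn0002607 (0.96 each), and Sod3 to Gpdh1 and UQCR-14 (0.85 each) and sun (0.84). After CG7215 at 1, the genes nearest to Prx5 were Drsl5 (0.92) and CG14777 (0.91). The likeness of Prx3 to GstT1, Ubi-p5E and Aos1 (0.98 each) dropped to 0.74, 0.65 and 0.70 without the 9 libraries, and that of Sod1 to FBgn0033162 dropped to 0.75. The genes named for Prx4, Sod2, Sod3 and Prx2 kept r of 0.90 to 0.99, but other genes then lay nearer. Of all genes named, only RpL24 for Sod1, Irp-1B for Cat and CG7215 for Prx5 stayed among the nearest 3 without the 9.

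Of 42 further genes of the antioxidant system that were tested, 3 rose and 9 fell after 10000 R as the mean over days, against 6.42% higher and 21.2% lower among all genes. After 20000 R, 5 rose and 8 fell, against 7.72% higher and 20.7% lower among all genes. The share that fell was near that of all genes at both doses, and the median log2 changes were 0.08 and 0.02. None passed after 1000 R. After 5000 R, Gtpx rose and cnc fell (-0.40, adjusted p = 0.0139). After 10 R, where 5 of the 9 libraries that stand apart lie, Trxr1 and foxo rose and Irc, Prx6a, Trx2 and Gpxl fell, and without the 9 none of these 6 passed. The genes named for 5000 R and 10 R were named after their values were seen, and cnc was not called without library b of control day 20. CatB, a relative of catalase, had 66.7, 110 and 90.4 normalized counts at day 10 after 10000 R and 68.2, 57.6 and 47.2 after 20000 R, against 5564, 5232 and 5448 in controls. The means of both doses lay at 1.64% and 1.07% of the control mean, and the changes were -5.94 ± 0.20 (adjusted p = 1.68e-24) and -6.54. The peroxiredoxin Prx1 had 4.76, 3.90 and 11.5 counts after 10000 R and 28.7, 0 and 3.54 after 20000 R at that day, against 443, 544 and 573 in controls. Its mean was at 1.30% and 2.06% of the control mean, and at 0.833% and 0.34% without the libraries that stand apart (c after 10000 R and a after 20000 R). TrxT, CG8517 and CG13473 of the thioredoxin family, the thioredoxin reductase Trxr2 and the glutaredoxin Grx1t all fell at day 10 at both doses, with log2 changes of -6.88 to -4.86. DJ-1alpha was at 15.3% and 23.1% of its control mean (adjusted p = 0.00255 and 0.0112), and its call after 20000 R was lost without c of that group. The testis markers, with medians of -5.83 and -6.86, fell at the same doses and day, and their part in these falls was not tested. Prx4, at 34%, was the only one of the 8 members to fall at these doses by limma.

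**Figure D5:**
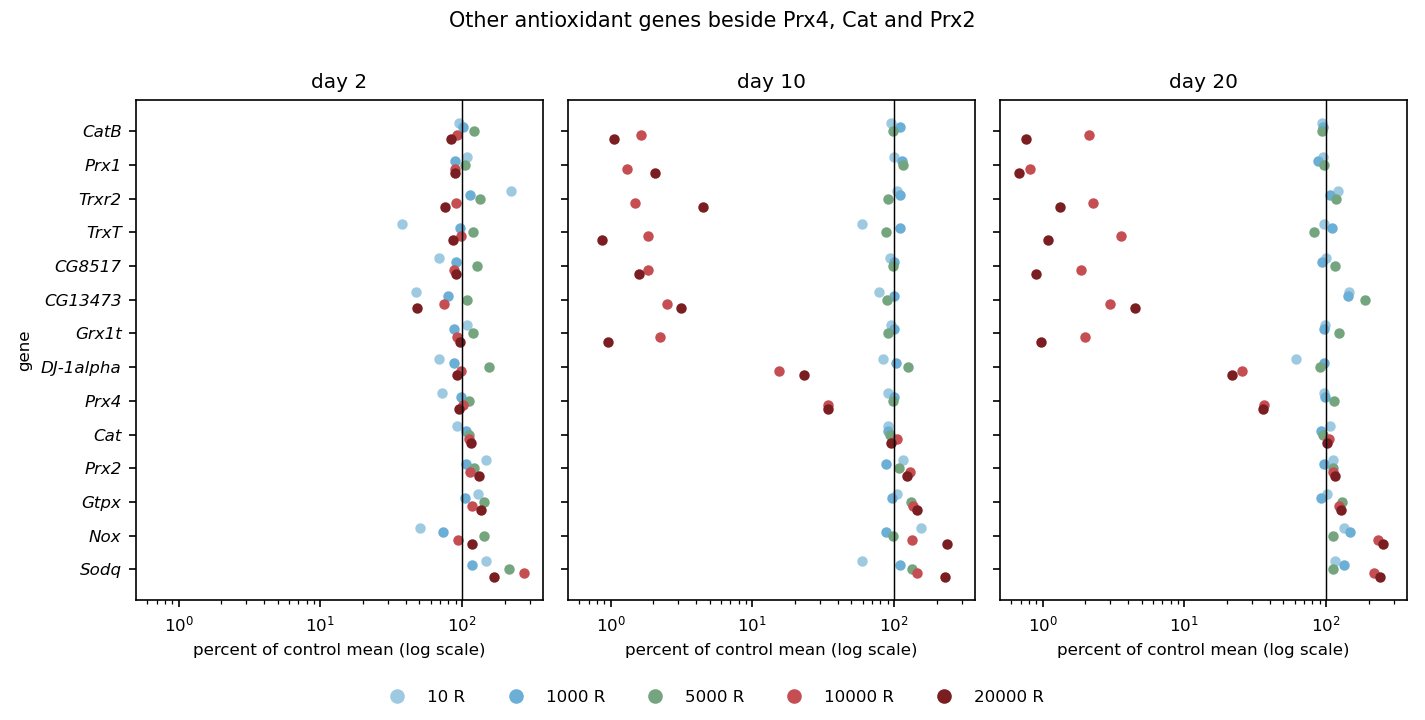
Level as a percentage of the control mean of the same day, on a log axis, for Prx4, Cat, Prx2 and further antioxidant genes. The further genes are those past the threshold over days at 10000 R or 20000 R, at most 4 per list. Cat passed no comparison with controls at these doses. At day 10 CatB lies at 1.64% after 10000 R and 1.07% after 20000 R, and Prx4 lies at 34% at both.

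Gtpx, a glutathione peroxidase homolog that in flies takes electrons from thioredoxin, rose over days by 0.42 after 5000 R (adjusted p = 0.00461), 0.33 after 10000 R (adjusted p = 0.00215) and 0.44 after 20000 R (adjusted p = 3.98e-05). At day 10 it had 7801, 6866 and 7199 normalized counts after 10000 R and 6771, 7927 and 8773 after 20000 R, against 5477, 5053 and 5538 in controls, with no overlap. Sodq, a relative of the superoxide dismutases, rose by 1.40 after 10000 R (adjusted p = 0.0109) and by 1.5 after 20000 R (adjusted p = 0.00615), at levels of 0 to 97.3 counts in these groups and their controls. The 0 was in library b of control day 20, which stands apart, and neither call held without the 9 (0.68, adjusted p = 0.132, and 0.65, adjusted p = 0.154). Nox, an NADPH oxidase that makes superoxide, rose by 0.91 ± 0.24 after 20000 R (adjusted p = 0.00329) and shares 173 exon bases with CG8060 on the opposite strand. Sesn, a sestrin, rose by 0.41 after 10000 R (adjusted p = 5.04e-06) and by 0.30 after 20000 R (adjusted p = 0.000672), and Srx, the sulfiredoxin that repairs overoxidized peroxiredoxins, rose by 0.42 after 20000 R (adjusted p = 0.00954). Txl fell by 0.27 after 10000 R (adjusted p = 0.0211). Sesn shares 65.1% of its exon bases with CG46429 on the same strand. On the opposite strand, Srx shares 232 exon bases (20.4%) with Arp8 and 468 (41.1%) with asRNA:CR43981. The calls of Srx and Txl were lost without library a of control day 20. Sesn, Srx and Txl were named after their values were seen. Against day 2, over all exposures, 16 of the 42 rose and 9 fell at day 10, against 20.3% higher and 25.4% lower among all genes. At day 20, 18 rose and 9 fell, against 20.6% higher and 30.3% lower among all genes. All 4 genes listed for NADPH supply rose at both days. Men rose by 1.00 and 1.18, Pgd by 0.66 and 0.80, Idh by 0.40 and 0.51 and Zw by 0.32 and 0.45. These genes, and the regulators that follow, were named after their values were seen. The regulators cnc, the fly homolog of Nrf2, at 0.41 and 0.56 and Keap1, its inhibitor, at 0.46 and 0.36 rose as well, though Keap1 lost its call at day 20 without any 1 of 6 libraries (control a, 1000 R c, 5000 R a or b and 10000 R b of day 20, and 10 R c of day 2).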

How the data were processed

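Whole-body polyadenylated RNA of 53 libraries was measured. The deposited table holds a normalized signal per gene, which the values show to be read counts divided by 1 size factor per library. The submitters' processing notes name TopHat2 2.0, DESeq and the dm3 build; neither the counting program nor the annotation release is known from those sources. Genes with a mean of at least 10 (12475 of 15222) were tested on log2(value + 1) with limma 3.58.1 in R 4.3.3, with 18 group means and a trended variance in 1 fit and Benjamini-Hochberg adjustment per contrast. Fold changes on this scale understate changes of low genes. Whole reads could be recovered for 100% of values within a tolerance of 0.1, and edgeR 4.0.16 and DESeq2 1.42.0 were run on them as alternatives. Other alternatives were pseudocounts of 10 and 0.5, no filter, quantile normalization, fits within a day, and leaving out each library or the 9 that stand apart. Gene symbols were found for 14347 identifiers (94.3%), and exon lengths came from a later genome build, so no coordinates are given. Of 52 pairs of libraries within groups, none was identical. The 8 members and all gene lists were chosen with earlier results of these data known. The further antioxidant genes named by rule were those past the threshold over days at 10000 R or 20000 R, at most 4 per list.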

Additional observations from a re-analysis of the deposited data

Results flagged for a closer look

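The response of Prx4 to irradiation differed between the 3 days by limma's F test over the interaction of day with dose, after 10000 R (adjusted p = 0.000105) and after 20000 R (adjusted p = 0.000272). Its log2 change after 10000 R was 0.02 at day 2, -1.55 at day 10 and -1.45 at day 20, and after 20000 R it was -0.08, -1.55 and -1.47. The 24 testis markers had their low sums at the same doses and days, and their part in the result was not tested.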

How the results depend on the processing

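Of the 39 calls of single members (that of Prx2 after 10 R stands in both sets of dose comparisons), 22 held in every alternative setting run (8 for calls within a day, 7 for the others) and with any 1 library left out, among them every call of Prx4 at 10000 R and 20000 R. Calls of doses against controls over days numbered 5, and 3 with edgeR, 3 without the filter on low values and 2 to 11 with 1 library left out. Calls within days numbered 10 (5 to 11 with 1 library left out), calls between neighbouring doses 6 (3 without the 9 libraries that stand apart; 3 to 13), calls of age in controls 3 (5 without the 9; 1 to 4), calls of age over all exposures 15 (14 to 15) and calls of a response that differed between days 2 (2 to 8). Without the 9 libraries the sign turned for Sod2 (-0.15), Prx2 (-0.0601) and Prx4 (0.23) at day 2 after 10 R and for Sod1 (0.0189) between 10 R and 1000 R; the change in construction is that 1 library of 10 R is left at day 2. Without library a of 10 R day 2, 11 calls over days, 13 between doses and 8 of differing response were made. Without library b of that group, 5 calls within days were left. Over days, 3 calls were left without control day 2 c, day 10 a or day 10 c, and 2 without control day 20 a. Between doses, 3 were left without 10 R day 2 b, day 10 c or day 20 c or 1000 R day 2 b, day 10 c or day 20 c. Without control day 20 a, 10 R day 10 c or 5000 R day 20 c, 4 calls of differing response were made. Without control day 20 b, 1 call of age in controls was left. Quantile normalization moved the median of all genes over days to 0.26 after 10000 R and 0.27 after 20000 R, against 0.06 and 0.08; Prx2 stood at 0.34 after 20000 R there. No paired analysis was possible because the columns carry no replicate number. The cause of these differences was not tested. The checks of further antioxidant genes without the 9 libraries, and without each library, were chosen after seeing the data; without the 9, 7 of 42 rose and 9 fell after 10000 R, and 6 rose and 9 fell after 20000 R.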
